A study of Mus musculus with 2 samples.

Results

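Collagens and matrix proteins were described in long-read RNA sequencing of the gastrocnemius, a calf muscle. The set was chosen by gene symbol: every collagen chain gene (Col, a number, a, a number) and Dcn, Lum, Fmod, Bgn, Podn, Ogn, Prelp, Chad, Comp, Thbs4, Sparc, Fn1, Gsn, Mgp, Tnmd and Eln. Of 60 such genes in the annotation (44 collagens and 16 others), 50 had at least 1 read, among 15324 annotated genes with reads in all. The tissue came from B6CASTF1/J female mice, first-generation hybrids of the B6 and CAST strains, aged 36 days, untreated as far as the labels say. Each library was made from 2 µg of RNA with spike-in mixes. The labels number the libraries as biological replicates 1 and 2 of 1 group with different female numbers under 1 donor entry. Tests between them therefore compare 2 libraries, not conditions.

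Collagens are built from 3 chains wound into a triple helix, which needs glycine at regular steps along each chain. Fibrillar collagens such as types I and III form the tensile fibres of tendon, perimysium and endomysium. Type IV collagen forms the sheet-like network of the basement membrane around each muscle fibre, and type VI collagen forms beaded filaments that link that sheet to the surrounding matrix. Small leucine-rich proteoglycans such as decorin bind fibrils and limit their width.

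The helix repeat can be read in the exons themselves, which is why the first 54-nt exon of 3 fibrillar chains and of a basement membrane chain is shown here, from the GENCODE M21 transcripts on mm10. In-frame GGN codons, which encode glycine, are in capitals.
Col1a1 exon 8, chr11:94939904-94939957, plus strand: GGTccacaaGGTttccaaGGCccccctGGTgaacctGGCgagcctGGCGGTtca
Col1a2 exon 6, chr6:4512361-4512414, plus strand: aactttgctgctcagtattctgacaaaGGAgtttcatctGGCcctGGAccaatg
Col3a1 exon 6, chr1:45325360-45325413, plus strand: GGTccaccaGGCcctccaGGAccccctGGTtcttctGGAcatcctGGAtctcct
Col4a1 exon 7, chr8:11245211-11245264, minus strand: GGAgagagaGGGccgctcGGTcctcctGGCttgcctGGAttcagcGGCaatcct
The Col1a1 exon held 7 such codons among 18, the Col3a1 and Col4a1 exons 6 each and the Col1a2 exon, which covers the start of the main helix, 3. In the annotation, 305 of 625 internal exons of the 11 fibrillar genes were 54 nt long (48.8%), and 84.0% had a length that is a multiple of 9. In basement membrane collagens 4.41% of internal exons were 54 nt long and in small proteoglycans 0%, against 0.705% over all protein-coding genes. The median fibrillar transcript had 60 exons and 6119 nt, and the median small proteoglycan transcript 5.5 exons and 2507 nt.

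Replicate 1 held 797105 reads in annotated genes and replicate 2 held 1602272. Levels are read counts scaled to the library's total in annotated genes (CPM). A single read thus adds 1.25 CPM to a gene in the first library and 0.624 CPM in the second, and a count of 0 allows up to 3.76 and 1.87 CPM. A long read is counted once whatever the length of its transcript, so levels were not divided by length. Intervals are exact 95% intervals for counting error only, since reads carry no molecular identifiers. Muscle genes were abundant in both libraries: 5 genes listed as fast fibre markers, led by Ckm and Acta1, summed to 228307 and 184462 CPM. These sums do not show which muscle was sampled. The libraries stood apart in other tissue components. Summed slow fibre markers (6 genes) were at 17.6 CPM in replicate 1, where 3 of them had 0 reads, and 7806 CPM in replicate 2. Blood markers (5 genes) were at 2556 and 554 CPM, adipocyte markers (6 genes) at 655 and 319 CPM and Schwann cell markers (6 genes) at 351 and 157 CPM. In reading, 9.18% of all reads were unspliced (1 exon) in replicate 1 and 16.2% in replicate 2. The part of these differences in the results below was not tested, and in bulk tissue fewer cells of a type and less RNA per cell cannot be told apart.

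Matrix genes were a small part of this muscle's RNA. All members together took 0.350% of the reads in replicate 1 (2791 reads) and 0.213% in replicate 2 (3408 reads), and Gsn alone made up 46.4% and 24.9% of these. Fibrillar collagens led the 3 main groups at 641 ± 211 CPM (SD, n = 2), followed by small proteoglycans at 308 ± 52.9 CPM and basement membrane collagens at 225 ± 21.3 CPM. Fibrillar collagens stood at 790 CPM in replicate 1 (95% interval 730 to 855) and 492 in replicate 2 (458 to 527). Small proteoglycans stood at 345 CPM (305 to 388) and 270 CPM (245 to 297), and basement membrane collagens at 210 CPM (179 to 244) and 240 CPM (216 to 265). With all reads counted, fibrillar collagens were thus above both other groups in each library, by more than the counting error. The order depended on the reads counted. Reads in models with a complete annotated intron chain numbered 366 in fibrillar collagens and 204 in small proteoglycans in replicate 1. In replicate 2 they numbered 212 and 339, so small proteoglycans led there. The lower pair kept its order in both libraries, with intervals that did not touch in replicate 1 but did in replicate 2. Beaded filament collagens followed at 43.9 and 54.3 CPM.

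**Figure D1:**
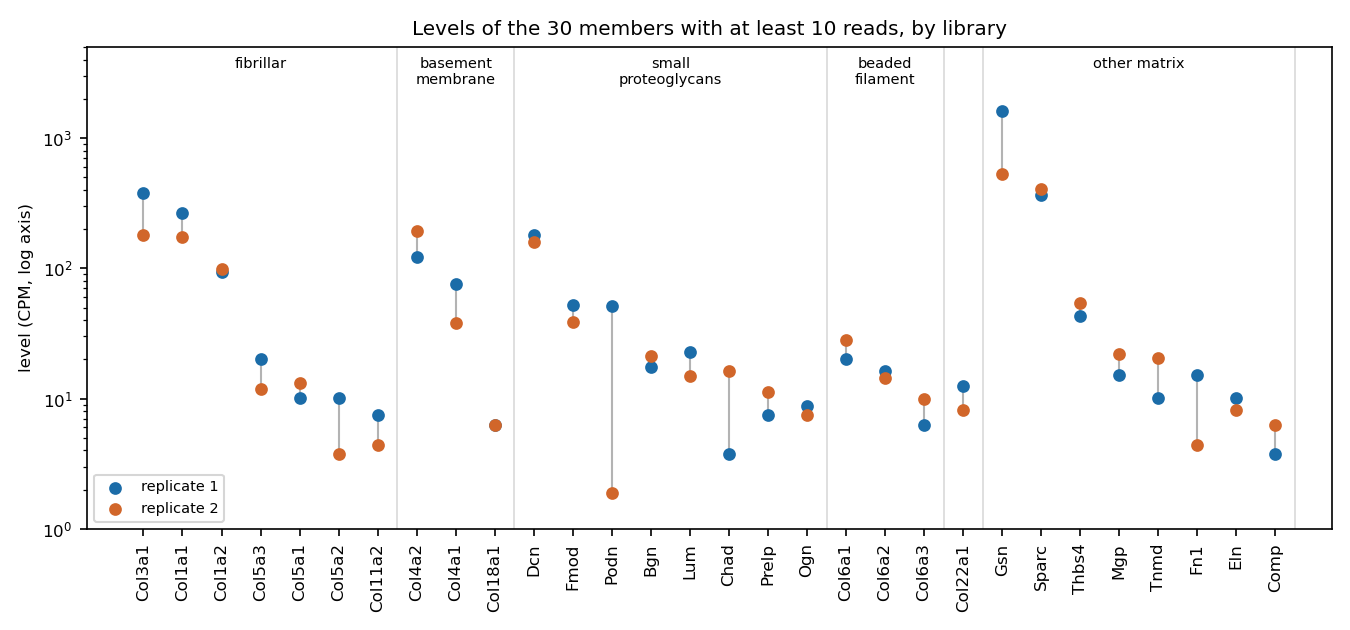
Levels of the 30 members with at least 10 reads summed, in CPM on a log axis, grouped by role; blue points are replicate 1, orange points replicate 2, and a grey line joins the libraries. Gsn is the highest member in both libraries, Col3a1, Col1a1, Sparc, Dcn and Col4a2 follow, and Podn and Chad have the widest gaps.

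Among fibrillar chains, Col3a1, the homotrimeric type III chain of pliant tissues, was read 304 times in replicate 1 (381 CPM) and 291 times in replicate 2 (182 CPM). Col1a1, the chain present in 2 copies in most type I molecules, had 210 reads (263 CPM) and 280 reads (175 CPM). Its partner Col1a2 had 74 reads (92.8 CPM) and 158 reads (98.6 CPM). These 3 chains held nearly all fibrillar reads; the type V and XI chains that regulate fibril width were each at 20.1 CPM or below. Col1a1 reads outnumbered Col1a2 reads 2.84 to 1 in replicate 1 (2.17 to 3.75) and 1.77 to 1 in replicate 2 (1.45 to 2.17). The intervals just touched, and both lay above 1. With spliced reads the ratios were 3.0 (2.23 to 4.08) and 1.66 (1.29 to 2.15), with intervals that did not touch.

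In the basement membrane group, Col4a2 had 97 reads (122 CPM) and 308 reads (192 CPM), and Col4a1, with which it forms the common type IV heterotrimer, 60 reads (75.3 CPM) and 61 reads (38.1 CPM). Col4a1 was thus below Col4a2 in both libraries, at 0.619 and 0.198 reads per Col4a2 read. The order turned when only spliced reads (2 or more exons) were counted, with 56 against 34 reads in replicate 1 (ratio 1.65, 1.06 to 2.6) and 42 against 22 in replicate 2 (1.91, 1.11 to 3.36). Most Col4a2 reads, 63 of 97 and 286 of 308, were a single-exon model in the last exon of the gene (mm10, chr8:11448059-11449287). Col18a1, the endostatin precursor, had 5 and 10 reads. Col4a3, Col4a5 and Col4a6, which form the type IV networks of kidney and some other tissues and are named here because of their count, had 0 reads in both libraries.

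Decorin (Dcn) was the main small proteoglycan, with 144 reads (181 CPM) and 254 reads (159 CPM). Fibromodulin (Fmod), a tendon-rich relative, had 42 reads (52.7 CPM) and 62 reads (38.7 CPM). Biglycan (Bgn) had 14 and 34 reads and lumican (Lum) 18 and 24, all at 22.6 CPM or below, and neither pair of libraries differed beyond counting error. Prelp and Ogn were between 7.49 and 11.2 CPM. Among the other matrix proteins, Sparc, a collagen-binding secreted protein, had 289 reads (363 CPM) and 649 reads (405 CPM). Thbs4, a pentameric matrix protein of tendon and muscle, had 34 reads (42.7 CPM) and 87 reads (54.3 CPM). The inhibitor of calcification Mgp, the tendon protein Tnmd, fibronectin (Fn1), elastin (Eln) and Comp were all at 21.8 CPM or below. Of the type VI chains, Col6a1 had 16 and 45 reads, Col6a2 had 13 and 23, and Col6a3 had 5 and 16. Col22a1, a fibril-associated collagen of the muscle-tendon junction, had 10 and 13 reads.

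Between the libraries, 1 of 30 members tested was higher in replicate 2 and 3 were lower, against 5.78% and 5.47% of all 8096 genes tested (11.3% in either direction). A call needed a Fisher's exact test adjusted p under 0.05 (Benjamini-Hochberg over those genes) and at least a 2-fold difference. The remaining 30 of 60 members had too few reads to test, 20 with some reads and 10 with none. The members' median log2 ratio of replicate 2 over replicate 1 was -0.19, against 0.06 over all genes tested. The ratio fell with the length of the longest protein-coding transcript over 7601 genes (Spearman's rho -0.36) and over the 30 members (-0.35). The members' lower median is therefore not shown to be particular to matrix genes, and the part of length in it was not tested. With Atp2a1, a muscle calcium pump gene with 87684 and 48342 reads, left out of the totals, the all-gene median was -0.07 and the members' split 0 higher and 5 lower, against 4.30% and 7.00% of all genes.

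Gsn, gelsolin, an actin-severing protein that also has a secreted form, had 1294 reads (1623 CPM) in replicate 1 and 850 reads (530 CPM) in replicate 2. It was 3.06-fold lower in replicate 2 (2.80 to 3.34, Fisher's exact test adjusted p = 4.9e-143). Col3a1 was 2.10-fold lower (1.78 to 2.47, adjusted p = 1.3e-17 by the same test). Col1a1 was 1.51-fold lower and stayed under the 2-fold minimum, although its Fisher's exact test adjusted p was 1.2e-04. Col1a2 had a ratio of 1.06 (0.801 to 1.42) and Dcn of 0.878 (0.712 to 1.08), so neither differed beyond counting error. Chad, chondroadherin, a leucine-rich protein of cartilage and tendon, was the higher member, at 3 and 26 reads (ratio 4.31, 1.32 to 22.3, Fisher's exact adjusted p = 0.045). It lost the call with Atp2a1 left out (adjusted p = 0.068), with Known models only (0.10) and with no read minimum (0.084). Tendon cell markers (6 genes, Tnmd among them) summed to 35.1 and 76.1 CPM. Of 5 tested, 1 was called higher, the tendon transcription factor Scx with 8 and 56 reads; Tnmd had 8 and 33 reads, and Cilp2 had a ratio of 0.995. Cartilage and bone markers were at 1.25 CPM in both libraries. The part of these cells in the Chad and Gsn differences was not tested.

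**Figure D2:**
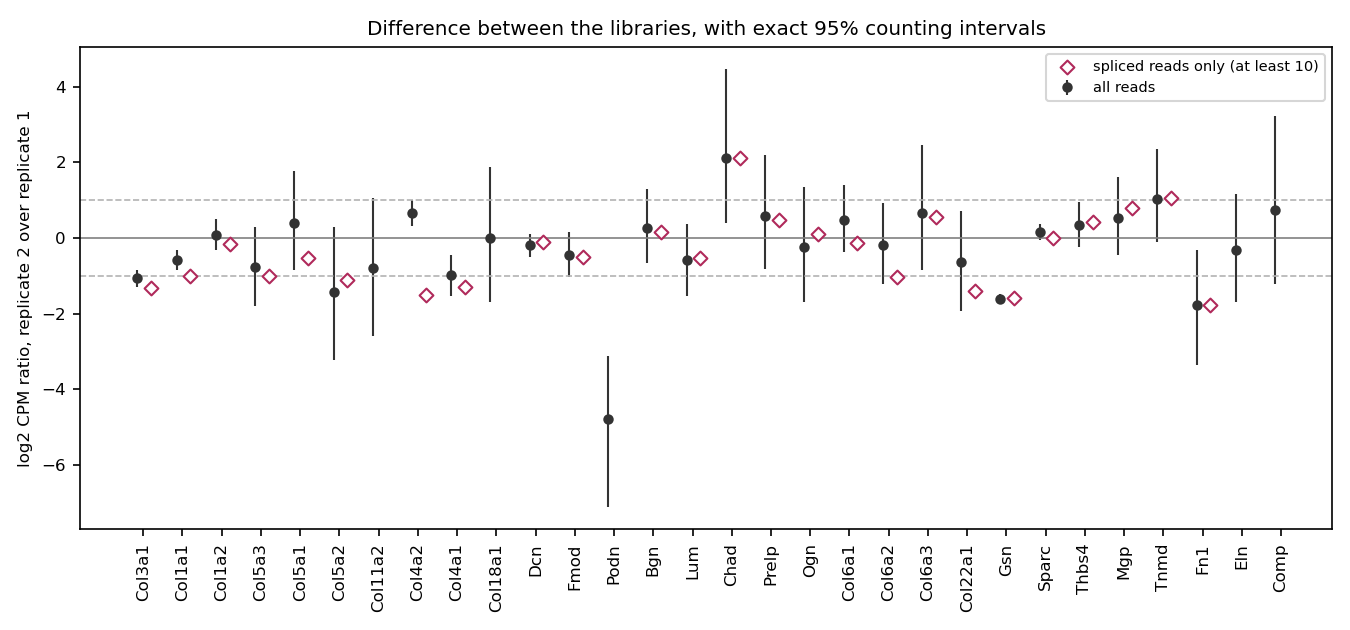
Log2 CPM ratio of replicate 2 over replicate 1 for the 30 members tested; black points are all reads with exact 95% counting intervals, open diamonds are spliced reads where both libraries together had at least 10, and dashed lines mark 2-fold. Gsn and Col3a1 lie below the lower dashed line on both scales, and Podn, Fn1 and Col5a2 do so with all reads. Chad lies above the upper one, and Tnmd just above it with all reads. Tnmd, Fn1 and Col5a2 were not called by the test. Col4a2 is above 0 with all reads and below 0 with spliced reads.

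Podn, podocan, a small proteoglycan, had 41 reads in replicate 1 and 3 in replicate 2, which the test called 27.5-fold lower. These reads were not of a podocan transcript for the most part. In replicate 1, 40 of them were a single-exon model at chr4:108043839-108044550 (mm10, minus strand), outside the exons of the Podn transcripts read, and all 712 of its bases lay in an exon of Scp2, a gene on the same strand with 117 and 479 reads. Reads in annotated Podn transcripts numbered 1 and 2. No difference in Podn itself can be read from these counts, and without that model 2 members, Col3a1 and Gsn, were lower.

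With spliced reads only, an alternative chosen after seeing the data, 5 of 25 members tested were lower (Col1a1, Col3a1, Col4a1, Col4a2 and Gsn) and 1 higher, against 8.41% and 5.69% of all genes. Col4a2 changed direction, from a ratio of 1.58 with all reads to 0.349 with spliced reads (34 and 22 reads). Spliced Col1a1 reads numbered 183 and 168, a 2.02-fold lower level in replicate 2, and spliced Col3a1 reads 294 and 216.

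The groups also differed in how fully their transcripts were read. A read was counted as a full splice match when its model had the complete intron chain of an annotated transcript (the class Known); incomplete splice matches (ISM) hold part of such a chain, and Genomic models are unspliced or partly spliced. In fibrillar collagens 58.1% of reads were full matches in replicate 1 (95% interval 54.1 to 62.0) and 26.9% in replicate 2 (23.8 to 30.1). In basement membrane collagens the shares were 24.6% (18.2 to 31.8) and 3.39% (1.81 to 5.72). In small proteoglycans they were 74.2% (68.6 to 79.3) and 78.3% (74.1 to 82.1). Of these 3 groups, small proteoglycans were read most completely in both libraries and basement membrane collagens least. Other matrix proteins were at 85.6% and 63.7%, and beaded filament collagens at 14.3% and 3.45%. The beaded filament share does not measure read completeness alone. Col6a1 exons of 9 and 21 nt were missing from every spanning read, and a read lacking them could not be a full match. Reads with at least 90% of the reference transcript's exons made up 34.3% and 20.7% of beaded filament reads, and 37.5% and 31.1% of Col6a1 reads. Over all genes 66.6% and 67.6% of reads were full matches. Single-exon reads made up 9.05% and 34.0% of fibrillar, 41.9% and 82.6% of basement membrane and 18.9% and 9.70% of small proteoglycan reads; the 18.9% includes the 40 reads at Podn that lay in Scp2. Without that Podn model the small proteoglycan shares of full matches were 86.8% and 78.3%, so the direction between the libraries turned, and the levels were 295 and 270 CPM.

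**Figure D3:**
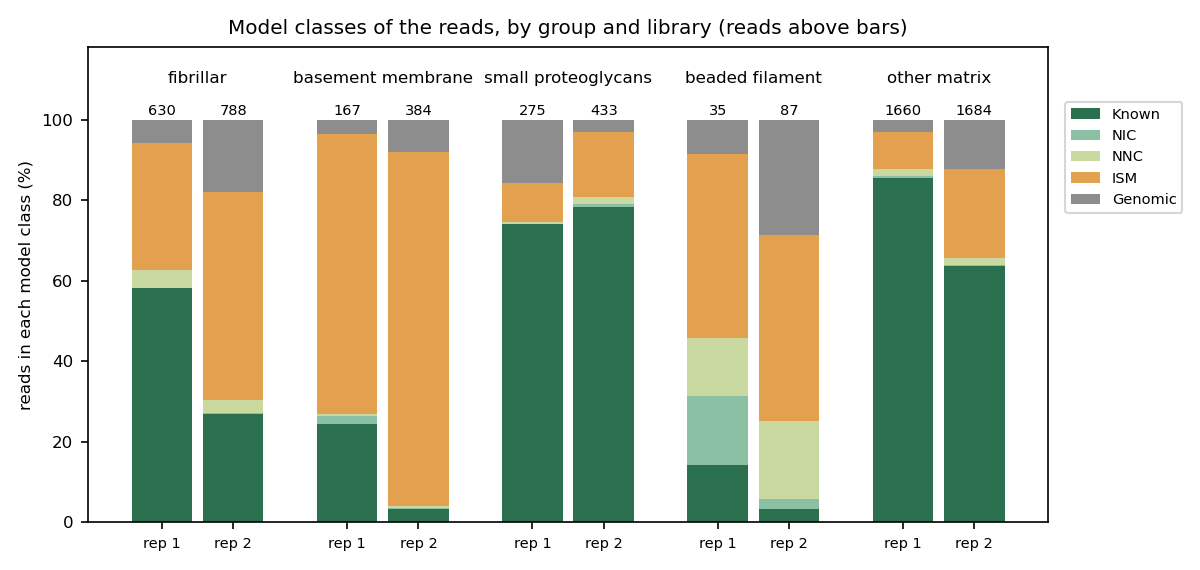
Share of reads in each model class for 5 groups and both libraries, in percent, with read numbers above the bars; NIC and NNC are new combinations of annotated splice sites and models with a new splice site. The dark green full-match part falls from 58.1% to 26.9% in fibrillar collagens and is 74.2% and 78.3% in small proteoglycans.

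Of 10 members with at least 20 reads in each library, 6 had a lower full-match share in replicate 2 and 0 a higher one, against 10.7% and 0.25% of all 3204 genes tested (Fisher's exact test, adjusted p under 0.05 and 10 points). Col3a1 fell from 78.9% of 304 reads to 44.3% of 291, and Col1a1 from 55.2% of 210 to 28.2% of 280. Col4a1 fell from 50% to 13.1% and Thbs4 from 50% to 14.9%. Gsn fell from 92.8% to 82.7%. Sparc fell from 62.3% to 45.6%; without Sparc-203 and Sparc-205, annotated part-chains with no coding sequence, it fell from 42.6% to 26.7%. Dcn, at 95.1% and 90.2%, did not pass the test, nor did Fmod at 64.3% and 46.8%. The median difference was -17.1 points for these 10 members and -4.68 over all genes. With spliced reads only, Col3a1, Col4a1 and Thbs4 kept the call, 3 of 10, against 1.79% of all genes in that setting.

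Longer transcripts had lower full-match shares. Across these 10 members, Spearman's rho of the share with the length of the longest protein-coding transcript was -0.64 in replicate 1 and -0.77 in replicate 2, and over 3087 genes -0.44 and -0.50. The members of 1 library share its depth and handling, so these are descriptions without a test. Among the long members, Col1a2 was at 0% in both libraries and lacked short exons in every spanning read. Most Col4a2 reads were a single-exon model in the last exon. The part of these features in the members' rho was not tested. Of spliced incomplete member reads, 99.2% and 99.4% were suffixes, the 3′ part of an annotated chain, against 95.0% and 95.8% over all genes. Suffixes were 76.4% and 55.6% of all incomplete member reads, since 119 and 544 reads had no such subtype. The median Col1a1 read held 51 of 51 exons in replicate 1 and 6 in replicate 2, and the median Col3a1 read 51 and 39.

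**Figure D4:**
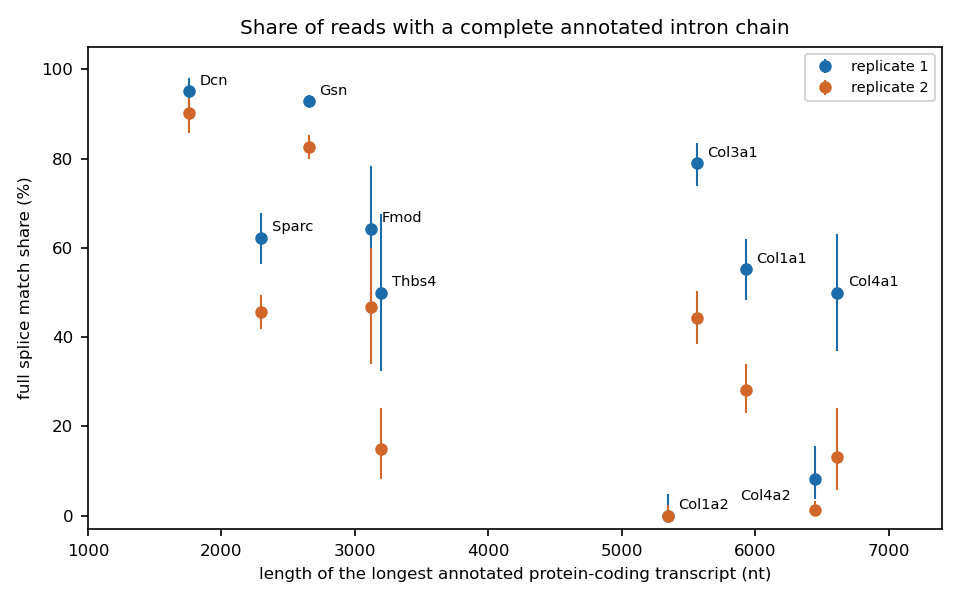
Full splice match share (percent) against the length of the longest annotated protein-coding transcript (nt) for the 10 members with at least 20 reads in each library; bars are exact 95% intervals. Dcn and Gsn are high in both libraries, and replicate 2 lies below replicate 1 for every member except Col1a2, which is at 0% in both.

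**Figure D5:**
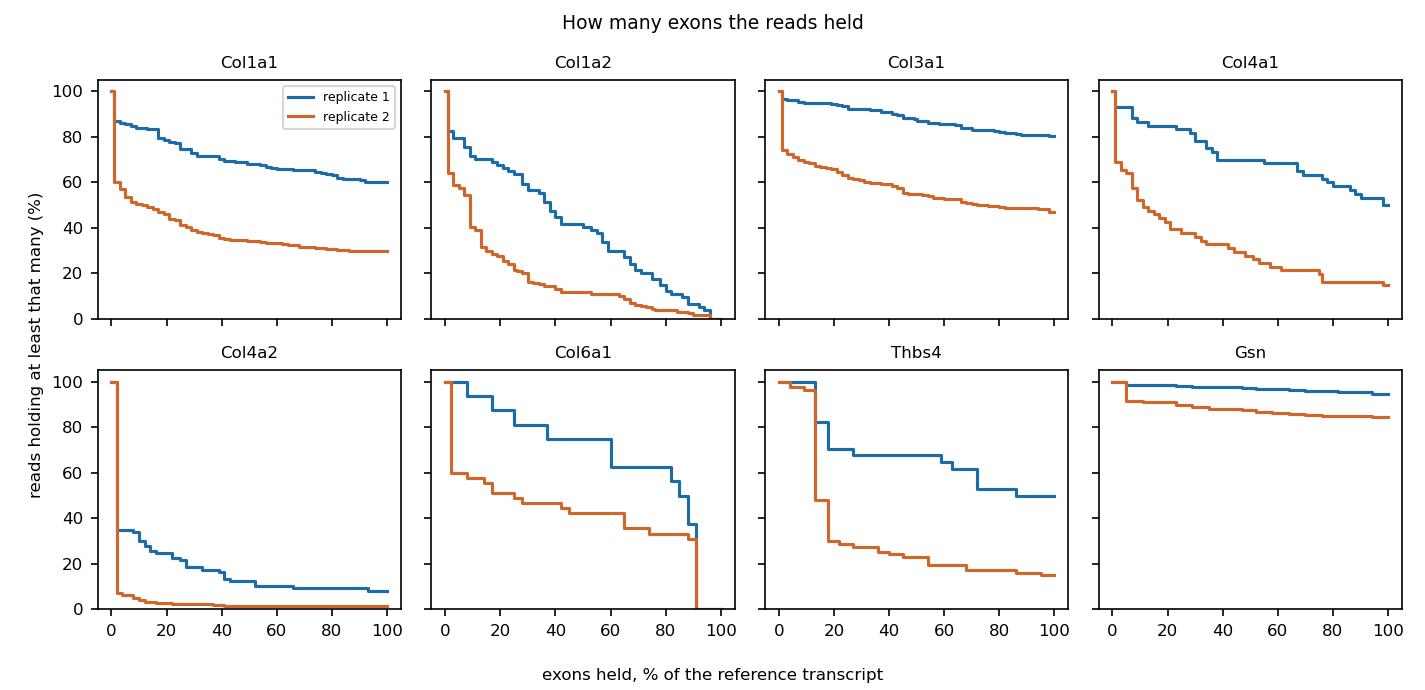
Percent of reads holding at least a given share of the reference transcript's exons, for 8 members; blue is replicate 1 and orange replicate 2. Gsn stays high to the last exon, Col4a2 drops at once to its single-exon reads, and the Col1a2 and Col6a1 curves end before 100%.

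Col1a2 and Col6a1 had 0 full matches in both libraries, although single reads held up to 50 of 52 and 32 of 35 exons. The exons missing from every read that spanned them were very short. They are printed in capitals with 24 nt of coding sequence on either side, from the same GENCODE transcripts.
Col6a1 exon 29, chr10:76712865-76712873, minus strand: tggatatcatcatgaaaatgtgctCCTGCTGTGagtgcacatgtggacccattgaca
Col6a1 exons 6 and 7, chr10:76721088-76721283, minus strand: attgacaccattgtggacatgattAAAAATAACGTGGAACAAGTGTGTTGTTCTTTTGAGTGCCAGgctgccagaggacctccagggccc
Col1a2 exons 2 and 3, chr6:4508335-4508954, plus strand: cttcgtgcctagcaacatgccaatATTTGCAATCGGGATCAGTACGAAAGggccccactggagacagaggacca
The 9-nt exon 29 of Col6a1 was missing from all 14 spanning reads in replicate 1 and all 23 in replicate 2. Exons 6 and 7, of 21 nt each, were missing together from 10 and 15 reads. Exons 2 and 3 of Col1a2, of 11 and 15 nt, were missing from all 3 and 2 spanning reads, while 1 further read in replicate 2 began at the first base of exon 3. The 12-nt exon 35 of Col6a3 was missing from 1 and 3 reads. Other exons of similar length were held: a 21-nt exon of Col6a2 by 6 and 4 reads with none lacking it, and the 27-nt exons of Col4a1 by every spanning read. Over all genes, 31 of 33 exons of up to 12 nt with at least 10 spanning reads were never included (93.9%), against 34 of 339 exons of 13 to 30 nt and 0.722% of exons of 31 to 54 nt. Among members, 2 of 10 such exons of 13 to 30 nt were never included, the 21-nt pair of Col6a1. Whether these exons were absent from the RNA or lost in alignment was not tested.

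Internal exons with enough reads for a test were mostly held by every read. Of 183 member exons in 9 genes with at least 20 informative reads in each library, 177 were at 100% in both. There were 4 under 90%, all near 0% in both: a 17-nt exon of Col4a1, a 103-nt exon of Dcn and 2 forms of a Gsn exon (147 and 256 nt). None (0) of the 183 differed in inclusion between the libraries by Fisher's exact test, adjusted or at an unadjusted p under 0.05. Over all genes 0.0316% of exons were called higher and 0.0158% lower. New splice donors in member reads often lay 4 nt past an annotated donor: 36 of 83 in all members (43.4%) and 26 of 40 in fibrillar collagens (65.0%), against 17.2% of 13803 over all genes. In Col1a1 these were 8 of 14, and the most read, at chr11 position 94946387, had 3 and 2 reads.

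Start sites could be compared for Dcn and Gsn. Dcn-202, which begins at a different first exon from Dcn-201 and encodes a protein of the same coding length (1062 nt), took 25 of 137 full reads in replicate 1 (18.2%) and 57 of 229 in replicate 2 (24.9%), which did not differ by Fisher's exact test (p = 0.16, adjusted over 3 genes 0.47). Sparc-202 took 17.1% and 17.3% of the full reads in it and Sparc-201. These transcripts also differ in coding length (903 and 906 nt), and an internal Sparc exon was read in forms of 57 and 60 nt. The Sparc-202 share can therefore not be read as a choice of start. Of 1201 and 703 full Gsn reads, 1196 and 699 matched Gsn-201, with a coding sequence of 2340 nt. Gsn-205 (2193 nt) had the other 5 and 4. Nearly all full Gsn reads thus used 1 of the annotated starts. For this reason the 100 bases before the RefSeq starts (GRCm38.p6) nearest to both are shown. GC box letters (GGGCGG or its reverse complement CCGCCC) are in capitals.
Gsn upstream start, chr2:35256259-35256358, plus strand: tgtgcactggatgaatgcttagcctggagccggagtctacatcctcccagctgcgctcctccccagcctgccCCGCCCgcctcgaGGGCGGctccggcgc
Gsn start used, chr2:35282280-35282379, plus strand: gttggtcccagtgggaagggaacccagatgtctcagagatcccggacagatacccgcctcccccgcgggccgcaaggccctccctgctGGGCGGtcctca
The little-read upstream start had 2 matches and the one in use 1, and 24.7% of 32851 RefSeq promoters hold a match in this window. For Sparc, 57 of 180 and 123 of 296 full matches were to Sparc-203 and Sparc-205, annotated without a coding sequence, whose introns are a stretch of the Sparc-201 chain.

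The 3′ ends of models holding spliced fibrillar reads clustered. Each model has 1 recorded end, which stands for all its reads, so the ends of single reads are not known. Of reads in spliced Col1a1 models outside the annotation, 63 of 67 in replicate 1 and 88 of 89 in replicate 2 were in models ending at chr11 position 94951847. This is 1195 nt before the annotated end. For Col3a1, 52 of 54 and 84 of 87 were in models ending at chr1 position 45349017, 689 nt before its annotated end. Each position led in both libraries. For Col1a2, 44.3% and 45.5% of 61 and 101 reads were in models ending at the annotated end. The other model ends differed between the libraries: position 4540962 had 34 and 0 reads, 4541007 had 0 and 38, and 4540698 had 0 and 16. Whether the reads themselves ended differently was not tested. Models in the antisense class lay over 22 members with 42 and 253 reads, led by Col1a1 (25 and 163) and Sparc (5 and 23), beside 210 and 280 sense reads of Col1a1. Of these 22 members, 7 had such reads in both libraries. The share of all genes under such models was not counted, so this is not shown to be particular to matrix genes.

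Lists of genes that make, anchor and degrade matrix are read against the same 5.78% higher and 5.47% lower over all genes. Of 13 tested folding and modification genes, 0 were higher and 2 lower, P3h1 (prolyl 3-hydroxylase, 23 and 14 reads) and P4ha1 (a prolyl 4-hydroxylase subunit, 22 and 13), at 3.30-fold and 3.40-fold. P4hb, the beta subunit of prolyl 4-hydroxylase, led the list at 154 and 103 CPM. Serpinh1, a collagen chaperone, was at 79.0 and 81.1 CPM and Sec13, a coat protein of secretory vesicles, at 53.9 and 62.4 CPM. None of 5 trimming and cross-linking genes was called; Pcolce, the enhancer of procollagen C-proteinase, led at 35.1 and 55.5 CPM, before Bmp1 (8 and 14 reads) and Loxl1 (6 and 13 reads). Among 9 laminins and partners, Lamb2 was 3.24-fold lower (71 and 44 reads) and Lamc1 2.01-fold lower (29 and 29), both laminin chains. Lamb1 was at 13.8 and 8.74 CPM. Of 10 elastic fibre genes, Mfap5 was 2.38-fold higher (18 and 86 reads) and Ltbp4 2.64-fold lower (42 and 32), and Fbln2 was at 25.1 and 17.5 CPM. None of 5 breakdown genes was called, and the inhibitor Timp2 led at 70.3 and 64.9 CPM, before Timp4 (28.9 and 41.8 CPM) and the gelatinase Mmp2 (30.1 and 24.3 CPM). Of 6 matrix receptors, Dag1 (dystroglycan) was 2.37-fold lower and Itga7, a laminin-binding integrin chain, 2.40-fold lower. Itgb1, the shared integrin beta chain, led at 86.6 and 56.2 CPM. Fibroblast markers summed to 104 and 141 CPM and endothelial markers to 107 and 102 CPM.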

How the data were processed

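Per the file headers and README, the authors deposited, per library, raw counts of reads for each transcript model with the models' coordinates, made from filtered alignments to mm10 with GENCODE M21; model classes are those of TALON. Aligner, read correction and filters: not given in the sources used here. Counts were summed per annotated gene and scaled to CPM. Because CPM are shares of a library, a change in a very abundant gene shifts every other gene. Fisher's exact tests (two-sided, Benjamini-Hochberg) covered 8096 genes with at least 10 reads summed, 3204 genes (20 or more reads per library) and 18986 exons. The tests were checked on simulated counts. Where very abundant genes changed, many unchanged genes were called as well; Atp2a1 differs between these libraries, so a total without it was tried. The tests also missed many 4-fold changes in genes with few reads, so a member with few reads and no call was not shown to be unchanged. Members with at least 10 reads could be named, as could pathway genes that were called or among the 3 highest of a list; 3 type IV chains with 0 reads were named after their values were seen. Members and lists were chosen with earlier results of these data known. TMM factors (edgeR 4.0.16) and DESeq2 1.42.0 size factors (R 4.3.3) served as other scalings. Python 3.11.15, scipy 1.17.1 and pandas 2.3.3 were used. Spike-ins were not analysed here.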

Additional observations from a re-analysis of the deposited data

How the results depend on the processing

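No paired analysis was possible because both libraries belong to 1 group. The count of members higher in replicate 2 (1) was 0 with Atp2a1 left out, with Known models only and with no read minimum, and 2 with a 1.5-fold minimum. The count lower (3) was 5 with Atp2a1 left out, Known models only, a 1.5-fold minimum or spliced reads only. The shares over all genes with Atp2a1 left out and with spliced reads only are given above. For Known models only, no read minimum and the 1.5-fold minimum they are not given. The counts in those settings are therefore not set against a background. Col4a2 reversed with spliced reads only (log2 ratio -1.52 against 0.66). Without ISM and Genomic models fibrillar collagens stood at 390.0 CPM and basement membrane collagens at 39.9 CPM. Basement membrane collagens stood at 44.6 CPM with Known models only and 92.0 CPM with spliced reads only. With Known models only, small proteoglycans had more reads than fibrillar collagens in replicate 2 (339 against 212). They had fewer in replicate 1 (204 against 366). With spliced reads only the full-match share was 30.8% in basement membrane collagens and 89.1% in small proteoglycans, and 3 members had a lower share. Without the Podn model inside Scp2 the mean share in small proteoglycans was 82.5%. TMM and DESeq2 scaling kept both counts. Leaving out 1 library gave 492 to 790 CPM for fibrillar collagens, 210 to 240 CPM for basement membrane collagens and 270 to 345 CPM for small proteoglycans, and shares of 26.9 to 58.1%, 3.39 to 24.6% and 74.2 to 78.3%. The cause was not tested. Beyond the settings that count other reads, depth limits the rest: 30 of 60 members had too few reads to test.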
